A study of Mus musculus with 9 samples.

Results

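The Ube2 genes encode the ubiquitin-conjugating (E2) enzymes and close relatives of them. They were taken as every gene of the deposited table whose symbol starts with Ube2, which gave 35 of 20467 genes. Their RNA was followed in 9 libraries from RAW264.7 cells, a mouse macrophage line, all treated with lipopolysaccharide (LPS, a bacterial cell wall component that activates macrophages) at 100 ng/ml for 2 h. Roquin IP (3 libraries) was RNA recovered with rabbit polyclonal anti-Roquin antibodies bound to protein A/G beads. Control IP (3 libraries) was RNA recovered on protein A/G beads with no antibody, and input (3 libraries) was RNA of the lysate before precipitation. Because the control held no antibody, RNA bound to Roquin and RNA held by the antibodies in another way cannot be told apart. The design text calls the replicates biological, and no label says whether they came from separate cultures, so p-values measure the spread between these libraries.

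Ubiquitin is passed from an activating enzyme (E1) to the active-site cysteine of an E2, and then, usually with the help of a ligase (E3), to a protein substrate. The choice of E2 often sets which kind of ubiquitin chain is built, and several members carry a ubiquitin-like protein such as NEDD8 or ISG15 in place of ubiquitin. In macrophages, chains built by Ube2n with Ube2v1 act in signalling from Toll-like receptors. Roquin is an RNA-binding protein that recognises stem-loops in mRNAs, among them the constitutive decay element (CDE) of Tnf mRNA, and brings such mRNAs to decay. The symbol rule also takes in genes that do not encode a conjugating enzyme. Ube2v1 and Ube2v2 encode E2-like partners without the active-site cysteine, and Ube2cbp, also known as Ube3d, encodes a protein that binds the E2 Ube2c and is classed as a ligase.

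Library totals ranged from 1799390 to 12975767 reads, with the fewest in the input (at most 2122288). Levels are CPM, that is, counts per 1e+06 reads after the library size was scaled by the trimmed mean of M-values (TMM), on which 1 CPM stood for 2.02 to 11.6 counts. Of 10 macrophage markers all 10 were measured, with summed CPM from 1479 to 2273 for Roquin IP, 1200 to 1781 for control IP and 1473 to 1947 for the input. Of 7 lymphocyte markers 6 had no count in any library, and the 7 fibroblast, epithelial and endothelial markers together stayed at or under 1.26 CPM in every library. The known Roquin target Tnf exceeded control IP 190-fold in Roquin IP (log2 fold change 7.57, edgeR quasi-likelihood test with Benjamini-Hochberg adjusted p = 2.97e-06).

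Of the 35 genes, 32 had counts, and the same 32 passed the filter on low counts. Ube2u, Ube2ql1 and Ube2dnl2 had 0 counts in all 9 libraries, which leaves room for at most 3 counts in each, equal to 0.258 to 1.49 CPM. All members together took 0.153% ± 0.0284 of the Roquin IP reads, 0.230% ± 0.0517 of the control IP reads and 0.211% ± 0.0105 of the input reads (SD, n = 3 each). These are shares of raw reads without TMM scaling, so they fall where reads of other genes rise. Tnf alone held 733448, 3535599 and 2275585 of the 3547517, 12975767 and 12898468 reads of Roquin IP 1, 2 and 3. The smaller share in Roquin IP thus does not by itself show a lower level of the members. Ube2q2, Ube2w and Ube2cbp made up 28.4% ± 5.38 of the Ube2 reads of Roquin IP, but 4.44% ± 0.104 of those of control IP and 5.37% ± 0.773 of those of the input (SD, n = 3 each).

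Roquin IP was compared with control IP to ask which mRNAs came down with the antibodies beyond those on beads alone. Ube2q2, Ube2w and Ube2cbp were higher in Roquin IP by 8.58-fold, 6.12-fold and 5.54-fold. These were 3 of the 32 tested members (9.38%), where 3.76% of all 9567 tested genes were higher. Ube2cbp passed the filter on low counts only through Roquin IP, where it was high, so its place among the tested members was not independent of this comparison. Without the filter 3 members were also called higher, where 3.25% of all genes then tested were. The fit in edgeR called 0 members lower (against 0% of all tested genes), as did DESeq2. At an unadjusted p under 0.05 1 member, Ube2n, was lower, where 2.13% of all tested genes were. The other 29 members lay between -0.62 and 0.68 on the log2 scale, with adjusted p from 0.481 to 0.990. The median log2 fold change was -0.18 over the 32 members and -0.12 over all genes tested.

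**Figure D1:**
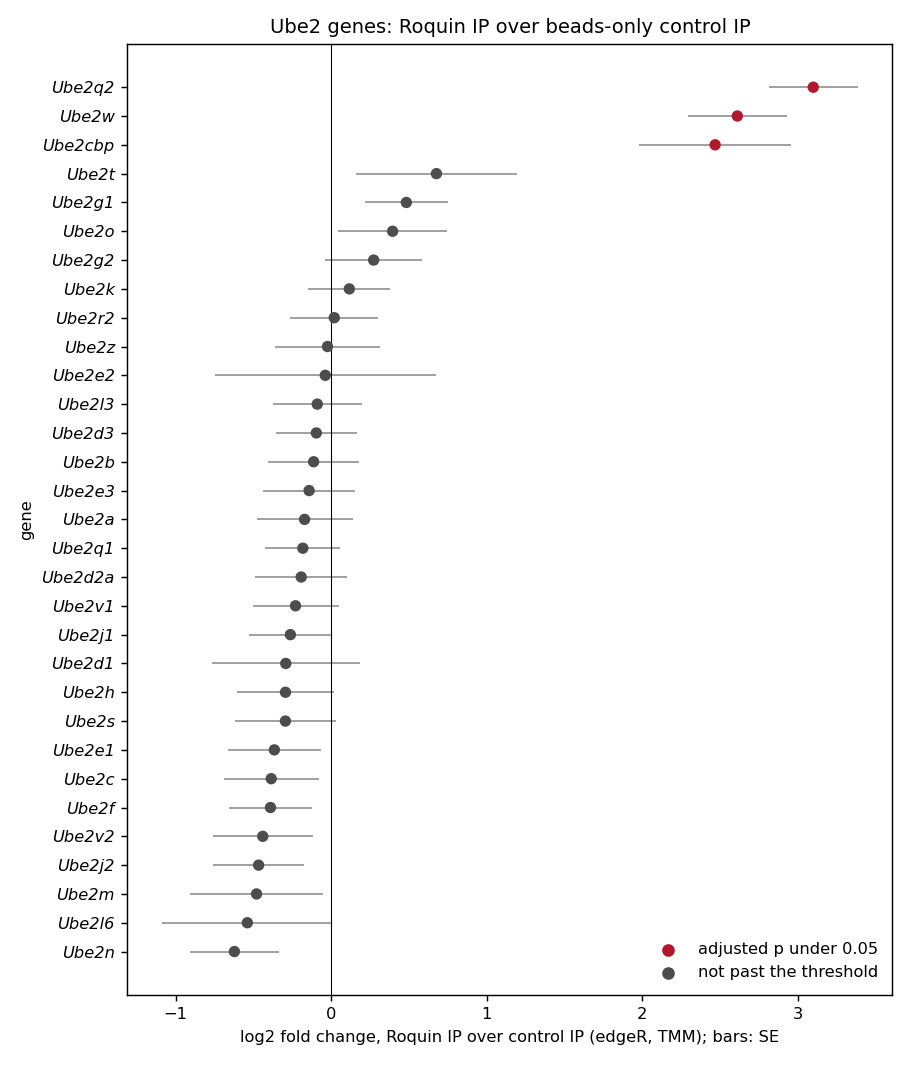
Log2 fold change of 31 of the 32 tested Ube2 genes in Roquin IP over control IP (x axis, edgeR with TMM; bars are standard errors), ordered by size, with genes past an adjusted p of 0.05 in red. Ube2q2 (3.10), Ube2w (2.61) and Ube2cbp (2.47) stand to the right of a continuous run of genes between -0.62 and 0.68.

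Ube2q2 encodes an E2 with a long N-terminal extension and lies at chr9:55148854-55207529 (GRCm38, plus strand). Its level was 576, 355 and 415 CPM in Roquin IP 1, 2 and 3, 47.5, 48.8 and 60.1 in control IP 1, 2 and 3, and 67.2, 58.9 and 60.5 in the input. The lowest Roquin IP library was above every other library, and control IP and input overlapped. The log2 fold change was 3.10 over control IP (SE 0.29, edgeR adjusted p = 8.28e-06) and 2.85 over the input (SE 0.28, adjusted p = 1.59e-05). The 1137 coding bases of Ube2q2 have a copy of 99.0% identity, Gm4895, in the GENCODE transcripts, and the deposited table lists no gene of that symbol, so reads from the copy could be counted as Ube2q2 or lost.

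Ube2q1, the closest relative of Ube2q2 in the family, was the more abundant of the pair per kb of transcript in the input (41.3 against 17.999 CPM per kb). Its level was 148, 131 and 149 CPM in Roquin IP, 171, 155 and 161 for control IP and 146, 109 and 126 for the input. Roquin IP lay just under control IP and overlapped the input. Against control IP it changed by -0.18 on the log2 scale (SE 0.24, edgeR adjusted p = 0.854), and the difference from Ube2q2 was not tested.

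Ube2w encodes an E2 that attaches ubiquitin to the N-terminus of substrates and lies at chr1:16540790-16619489 (minus strand). It was at 209, 125 and 134 CPM in Roquin IP, 19.8, 31.0 and 25.4 for control IP and 35.0, 37.6 and 23.8 for the input. All 3 Roquin IP libraries were above all 6 others, and Roquin IP 1 was the highest, as for Ube2q2. It had a log2 fold change of 2.61 over control IP (SE 0.32, edgeR adjusted p = 9.02e-05) and 2.27 over the input (SE 0.32, adjusted p = 0.000374). Its exons overlap those of Gm38342, on the other strand, by 253 bases, and reads of overlapping genes cannot be told apart without strand.

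Ube2cbp, at chr9:86307306-86464950 (minus strand), had the lowest input level per kb of the tested members, on 4, 4 and 5 counts. Control IP held 21, 9 and 51 counts. Roquin IP held 46, 142 and 321 counts. In CPM this was 19.3, 17.95 and 31.1 in Roquin IP, 6.40, 1.76 and 4.38 for control IP and 1.63, 1.58 and 2.48 for the input. Roquin IP did not overlap either background, and control IP 2 was lower than the other control libraries. For Ube2cbp the log2 fold change was 2.47 over control IP (SE 0.49, edgeR adjusted p = 0.00692) and 3.59 over the input (SE 0.57, adjusted p = 0.00105). Without Roquin IP 3 the call over control IP ended (2.17, adjusted p = 0.0899). That was the exception among the 3 genes, which were otherwise called over control IP and over the input in all 15 alternative analyses.

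**Figure D2:**
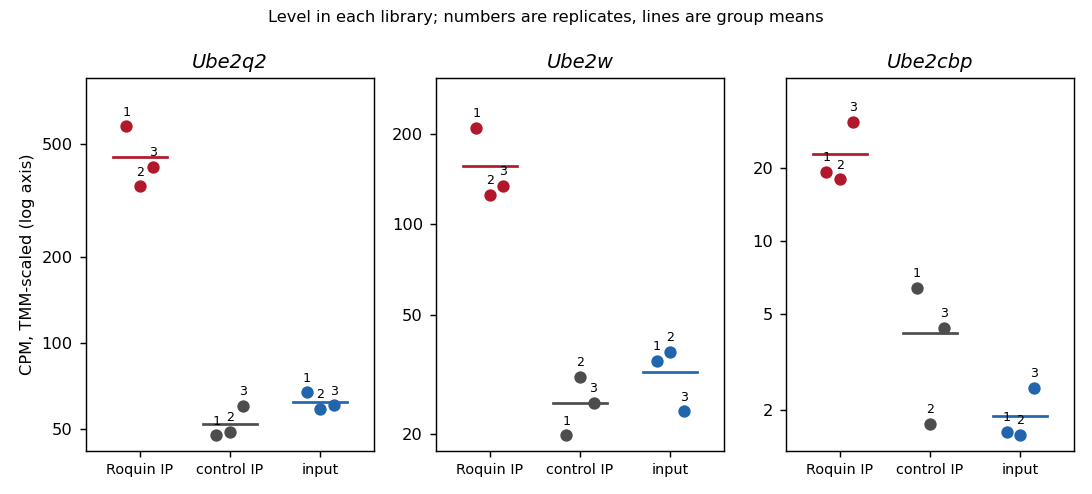
Level of Ube2q2, Ube2w and Ube2cbp in each of the 9 libraries (y axis, TMM-scaled CPM on a log axis; points are libraries numbered by replicate, lines are group means, n = 3). In each panel the 3 Roquin IP libraries lie above the 6 others, with means of 449, 156 and 22.8 CPM in Roquin IP.

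The authors' deposited table gave the same 3 genes. Its ratios of Roquin IP to control IP were 8.72 for Ube2q2, 6.25 for Ube2w and 5.48 for Ube2cbp, with p-values of 0.000002, 0.000508 and 0.004154. These were the 3 members under 0.05 among 32 with a p-value in the authors' deposited table, where 1.81% of all genes with a p-value were under 0.05. The next ratios there were 1.65 for Ube2t and 1.42 for Ube2g1, both with a p-value of 1.

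The deposited table also carried the authors' prediction of a CDE for each gene. All 35 Ube2 genes, the 3 enriched members included, were listed there as having no CDE. Of all genes listed, 188 (0.919%) had a predicted CDE, of which 55 were in the 3′ untranslated region (3′ UTR) and conserved, 53 in the 3′ UTR and not conserved, and 80 in the coding sequence.

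The sequences were searched for the CDE core, the 9 bases made of TTC, a loop of pyrimidine, purine and pyrimidine, and GAA, on the transcript strand of the longest annotated 3′ UTR. The core was present in 2 of 32 tested members, Ube2l3 and Ube2f, and in 6.6% of the 9448 tested genes with a 3′ UTR. Ube2q2, Ube2w and Ube2cbp held no match in any of their 4, 7 and 2 annotated transcripts. The matches of Ube2l3 and Ube2f follow the Tnf element, because these members carry the letters of the core and were not enriched. In the Tnf line capitals mark the whole paired stem and its loop, and in the others they mark the core.
Tnf, chr17:35199585-35199599, minus strand, 6 base pairs: gacatGTTTTCTGTGAAAACggagc
Ube2l3, chr16:17159592-17159600, minus strand, 4 base pairs: ggtagcatTTCTGTGAAagcacaca
Ube2f, chr1:91285799-91285807, plus strand, 3 base pairs: ttagcttcTTCCACGAAtgttgacc

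The Tnf stem pairs 6 bases on each side of the loop, that of Ube2l3 4 and that of Ube2f 3, counting only A-T and G-C pairs. The core of Ube2l3 lay in 1 of its 8 annotated transcripts and that of Ube2f in 3 of 11. Ube2l3, which encodes an E2 for ligases of the RING-between-RING kind, was at 59.1, 72.3 and 70.4 CPM in Roquin IP and 47.8, 88.8 and 78.1 in control IP, and the groups overlapped (log2 fold change -0.09, SE 0.29, edgeR adjusted p = 0.938). Ube2f, a NEDD8 E2, was at 52.0, 80.5 and 63.2 CPM in Roquin IP and 74.3, 91.5 and 91.3 in control IP, again with overlap (-0.39, SE 0.27, adjusted p = 0.704). Exons of Ube2l3 overlap those of Ydjc, on the other strand, by 1670 bases. Ube2l3 and Ube2f also have near-identical copies among annotated transcripts (Gm10705 at 99.7% identity over 310 bases and Gm7099 at 97.7% over 558), so their counts are uncertain.

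A wider search asked for any stem of at least 5 A-T or G-C pairs around a loop of pyrimidine, purine and pyrimidine, whatever the stem's letters. This search was chosen after the values were seen. It matched 11 of 32 tested members and 26.4% of the 9448 genes. Stems of at least 8 pairs were found in 2 members, Ube2q2 and Ube2k, and in 1.06% of genes. Ube2q2 and Ube2cbp each held 1 match and Ube2w none in its 1487 bases of 3′ UTR. The matches in the enriched members are shown beside that of Ube2k, which had a stem as long as that of Ube2q2 and was not enriched, with the stem and loop in capitals.
Ube2q2, chr9:55207486-55207504, plus strand, 8 base pairs: ttgTAAACTTGCATCAAGTTTAtga
Ube2cbp, chr9:86307770-86307782, minus strand, 5 base pairs: gcagttTGCTCTGTGAGCAcaacct
Ube2k, chr5:65596302-65596320, plus strand, 8 base pairs: tgtTTCAAAAATACTTTTTGAAcct

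The Ube2q2 stem-loop covers bases 1495 to 1513 of a 3′ UTR of 1538 bases, and that of Ube2cbp bases 534 to 546 of 574. This Ube2cbp 3′ UTR belongs to a transcript with 417 coding bases. The longest Ube2cbp transcript with both UTRs has 1107 coding bases, and whether its 3′ UTR holds the match was not examined. The loop letters of Ube2cbp, TGT, are those of the Tnf element, and stems of 5 pairs with that loop were also found in Ube2l3, Ube2e3 and Ube2d2a, which were not called. Ube2k, an E2 that builds degradative ubiquitin chains, was at 62.5, 50.2 and 55.9 CPM in Roquin IP and 49.3, 45.1 and 60.5 in control IP, and these groups overlapped (log2 fold change 0.12, SE 0.26, edgeR adjusted p = 0.921). A match describes letters in a longest annotated 3′ UTR, and longer UTRs hold more matches by length alone. The median 3′ UTR was 1568 bases in the tested members and 1398 in all tested genes.

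**Figure D3:**
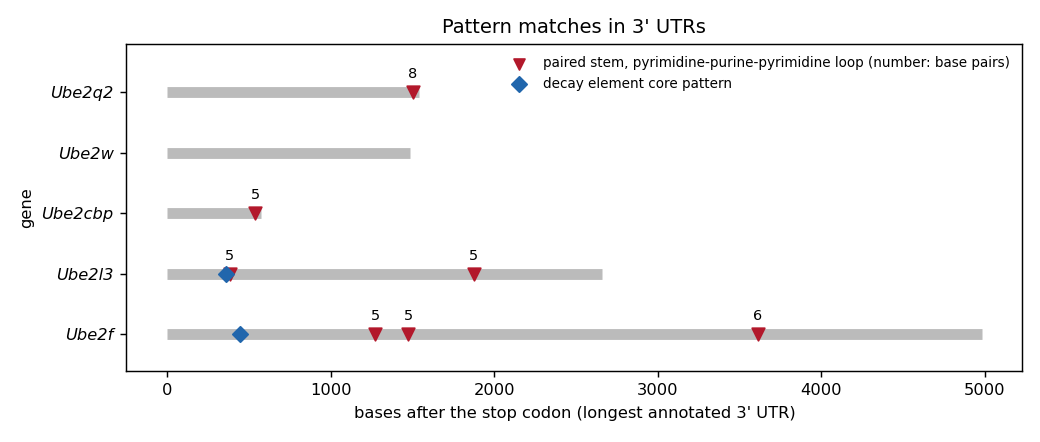
Position of pattern matches in the longest annotated 3′ UTR of 5 members (x axis, bases after the stop codon; grey bars are the UTRs). Triangles are stems of at least 5 A-T or G-C pairs around a pyrimidine-purine-pyrimidine loop, numbered by base pairs, and diamonds the CDE core, which Ube2l3 and Ube2f hold and the 3 enriched members lack.

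Among the E2s of broad specificity, which build or start ubiquitin chains with many ligases, Ube2w was the single member higher of 9 tested, with a list median log2 fold change of -0.14. For this and the following lists of members, 3.76% of all tested genes were called higher over control IP and 0% lower. Ube2d3 was even within each kind of precipitate but not in the input, at 158, 158 and 156 CPM in Roquin IP, 170, 161 and 173 for control IP and 154, 245 and 259 for the input. Roquin IP lay under control IP with no overlap, but by -0.10 on the log2 scale (SE 0.26, edgeR adjusted p = 0.931). Ube2d2a and Ube2d3 have near-identical copies among annotated transcripts (Gm9762 at 100% and Gm4596 at 97.3% identity over 444 and 438 bases), so their counts are uncertain.

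The E2 of non-degradative signalling chains, Ube2n, and its inactive partners Ube2v1 and Ube2v2 all had negative log2 fold changes over control IP, and 0 of 3 was called. Ube2n was at 29.4, 42.2 and 42.8 CPM in Roquin IP, 58.2, 55.1 and 63.8 for control IP and 49.3, 73.5 and 80.3 for the input. Roquin IP was below both backgrounds without overlap. Ube2n had a log2 fold change of -0.62 over control IP (SE 0.28, edgeR adjusted p = 0.481) and -0.82 over the input (SE 0.29, adjusted p = 0.0989). With libraries paired by replicate number Ube2n was lower than in the input (-0.82, adjusted p = 0.0217). Ube2v1 and Ube2v2 were at -0.23 and -0.44 over control IP, and both genes have near-identical copies, as has Ube2n (Ube2n-ps1, 100% over 459 bases).

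The members that carry ubiquitin-like proteins include Ube2m and Ube2f (NEDD8), Ube2l6 (ISG15) and Ube2z, which is charged by the E1 Uba6. Over control IP 0 of 5 tested in this list were called, with a median log2 fold change of -0.39. Ube2l6 was at 9.65, 12.5 and 10.9 CPM in Roquin IP, 12.8, 18.6 and 16.8 for control IP and 2.04, 22.1 and 10.4 for the input. It was lowest in input 1, where Ube2m was also at its lowest (16.7 CPM against 54.6 and 53.1 in the other inputs). Ube2l6 (-0.54, SE 0.55, edgeR adjusted p = 0.802) and Ube2m (-0.48, SE 0.43, adjusted p = 0.772) were, after Ube2n, the lowest members over control IP.

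Of the 3 E2s of DNA damage and chromatin, Ube2a, Ube2b and Ube2t, 0 were called over control IP. Of the 5 of cell division and cullin ligases, Ube2c, Ube2s, Ube2r2, Ube2g1 and Ube2k, 0 were called, and Ube2g1 lay above control IP in all 3 libraries (60.8, 71.2 and 80.2 CPM against 44.2, 48.01 and 59.6). Its log2 fold change was 0.48 (SE 0.27, edgeR adjusted p = 0.631). The 3 E2s of degradation at the endoplasmic reticulum, Ube2g2, Ube2j1 and Ube2j2, were between -0.47 and 0.27, and 0 was called. The 4 tested large or less characterised members were Ube2q2 and Ube2cbp, both called, and Ube2q1 and Ube2o, which were not (list median 1.43).

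Over all members, Roquin IP lay above control IP in every library for 4 of 32 (12.5%, against 10.7% of all tested genes) and below it for 8 (25%, against 8% of all tested genes). The 8 were Ube2n, Ube2l6, Ube2j2, Ube2v2, Ube2e1, Ube2v1, Ube2q1 and Ube2d3. Scaling by library size alone took the all-gene median from -0.12 to -0.96 on the log2 scale, and 20 of the 32 members were then called lower (against 38.8% of all tested genes) while Ube2q2, Ube2w and Ube2cbp remained called higher at 2.25, 1.76 and 1.67. Directions of the weaker members are thus relative to this median.

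**Figure D4:**
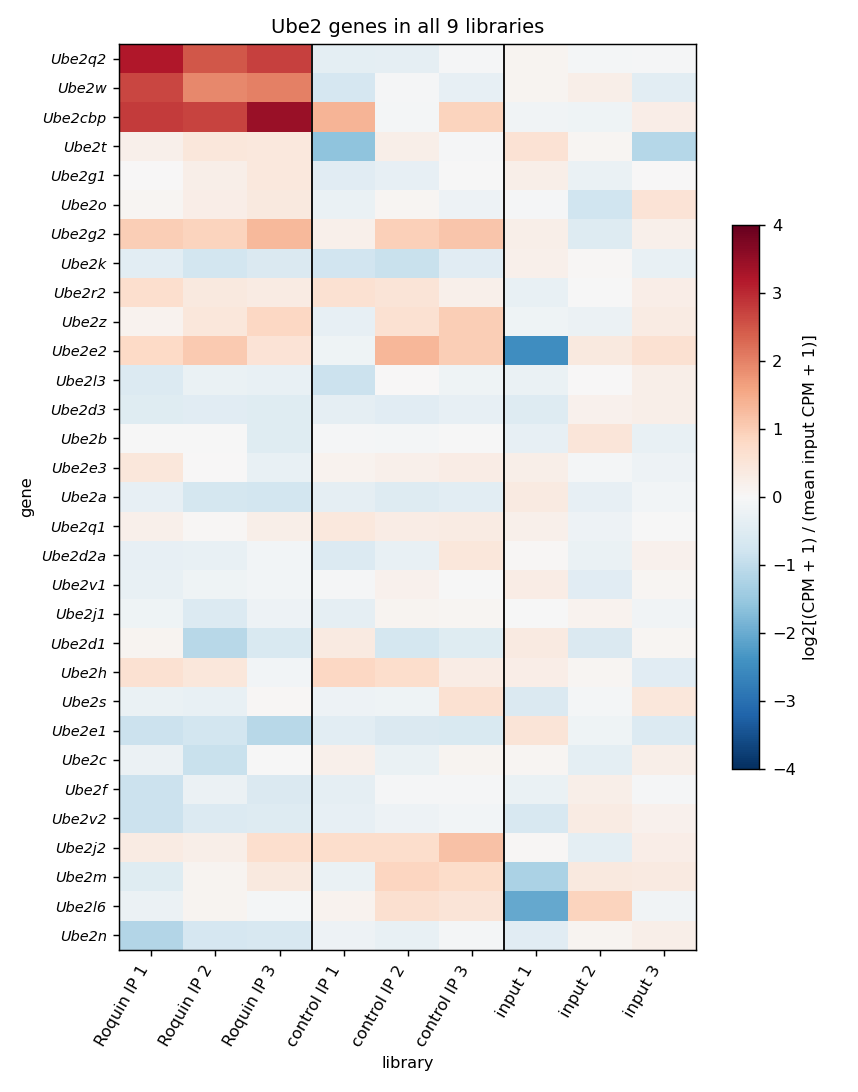
Level of 31 of the 32 tested members in each library relative to the input mean (colour, log2 of CPM + 1 over mean input CPM + 1; rows ordered by fold change over control IP, columns are the 9 libraries). The Roquin IP columns of the top 3 rows are the darkest red, and the blue cells of Ube2e2, Ube2l6 and Ube2m in input 1 stand for 0, 2.04 and 16.7 CPM.

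Roquin IP was next compared with the input, that is, with the RNA of the lysate. Ube2cbp was 12.1-fold, Ube2q2 7.20-fold and Ube2w 4.83-fold higher. They were again 3 of 32 members called higher (9.38%, against 5.45% of all tested genes), and 0 were called lower in edgeR (against 2.79%). Here too Ube2cbp had entered the tested set only through Roquin IP. At an unadjusted p under 0.05 3 members were lower (against 10.7% of all tested genes), and DESeq2 called 2 lower, Ube2e1 and Ube2n (against 5.67%). With libraries paired by replicate number, edgeR called 4 members higher (against 9.99% of all tested genes). It then called 2 lower, again Ube2e1 and Ube2n (against 8.04%). This comparison shares the Roquin IP libraries with the one above. The median log2 fold change was 0.00 over the members and -0.01 over all genes tested. Roquin IP lay above every input library for 5 members (15.6%, against 16.5% of all tested genes) and below every one for 4 (12.5%, against 14.3%). The 5 were the enriched genes, Ube2g2 and Ube2r2, and the 4 were Ube2k, Ube2j1, Ube2e1 and Ube2n.

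Ube2g2, an E2 of endoplasmic reticulum degradation, lay just outside the threshold over the input and is named here after its values were seen. It was at 69.6, 65.4 and 87.7 CPM in Roquin IP, 40.2, 67.4 and 76.2 for control IP and 40.7, 23.7 and 39.7 for the input. Both kinds of precipitate were higher than the input on average, and Roquin IP overlapped control IP. Its log2 fold change over the input was 1.10 (SE 0.32, edgeR adjusted p = 0.0514), and it was called in 6 of the 15 alternative analyses. These were the replicate block (1.09, adjusted p = 0.0135), DESeq2 (0.0132), RLE factors (0.0495), no filter (0.0226), only the 6 libraries compared (0.0291) and leaving out control IP 1 (0.0214). With library size alone its log2 fold change fell to 0.38 (adjusted p = 0.452). Part of its exons (166 bases) is shared with Gm49325.

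The lowest members over the input were Ube2e1, Ube2n and Ube2v2. Ube2e1, an E2 of broad specificity, was at 50.3, 54.6 and 42.1 CPM in Roquin IP, 68.2, 60.9 and 60.3 for control IP and 133, 81.1 and 62.5 for the input. Roquin IP was below both backgrounds, and the input libraries were spread by more than their distance from control IP. The log2 fold change was -0.91 (SE 0.30, edgeR adjusted p = 0.0811), or -0.86 with the replicate block, where it was called (adjusted p = 0.0219). Exons of Ube2e1 overlap those of Nkiras1, on the other strand, by 718 bases. Ube2v2 was at -0.65 (SE 0.33, adjusted p = 0.253).

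Control IP was compared with the input to show what beads alone retained. The edgeR test called 0 of 32 members higher (against 0.815% of all tested genes) and 0 lower (against 0.303%), while at an unadjusted p under 0.05 3 were higher (against 10.8% of all tested genes) and 1 lower (against 9.53%). By DESeq2 1 member was higher (against 4.23%) and 0 were lower (against 4.19%). With libraries paired by replicate number, edgeR called 2 higher (against 6.65%) and 0 lower (against 5.78%). The enriched genes were at -0.25 for Ube2q2 (adjusted p = 0.647), -0.34 for Ube2w (0.587) and 1.12 for Ube2cbp (0.297). Besides Ube2cbp the highest were Ube2e2 (1.00, SE 0.77, adjusted p = 0.505), which had 0 counts in input 1, and Ube2j2 (0.91, SE 0.30, adjusted p = 0.118). Ube2j2, a membrane-anchored E2, was at 55.4, 56.0 and 77.9 CPM in control IP against 35.0, 25.3 and 41.2 for the input without overlap. It was called with the replicate block (adjusted p = 0.0204) and with DESeq2 (0.0498). Ube2j2 has a near-identical copy among annotated transcripts (Gm5801 at 99.2% identity over 780 bases), so its counts are uncertain.

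The members lowest in control IP over the input were Ube2k (-0.70, SE 0.27, edgeR adjusted p = 0.164), Ube2e1 (-0.55, adjusted p = 0.323) and Ube2a (-0.44, adjusted p = 0.460). Ube2k was at 49.3, 45.1 and 60.5 CPM in control IP against 96.9, 86.6 and 67.9 for the input, with no overlap, and Ube2a likewise did not overlap (23.8, 21.2 and 22.6 against 39.1, 24.1 and 28.3). These were the 2 members below the input in every library (6.25%, against 10.8% of all tested genes), and 3 were above it, Ube2q1, Ube2h and Ube2j2 (9.38%, against 12.2%).

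Levels of different genes were compared per kb of the longest annotated transcript with both UTRs. In the input the members ranged from 1.06 CPM per kb for Ube2cbp to 89.2 for Ube2s, a chain-elongating E2 of the anaphase-promoting complex, with a median of 16.9. Exons of Ube2s overlap those of Rpl28, on the other strand, by 183 bases. Next to Ube2s were Ube2e1 at 65.4 ± 25.9 (SD, n = 3), Ube2d3 at 57.2 ± 14.99 and Ube2q1 at 41.3 ± 6.03 CPM per kb, and these neighbours did not differ beyond their spread. Ube2q2, at 17.999 ± 1.27 CPM per kb, and Ube2w, at 14.7 ± 3.36, were in the middle of the family in the input. In Roquin IP Ube2q2 was the most abundant member at 129.8 CPM per kb, above Ube2s at 79.8 and Ube2w at 71.6. In these bulk libraries, fewer cells that hold an mRNA and less of it per cell cannot be told apart.

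**Figure D5:**
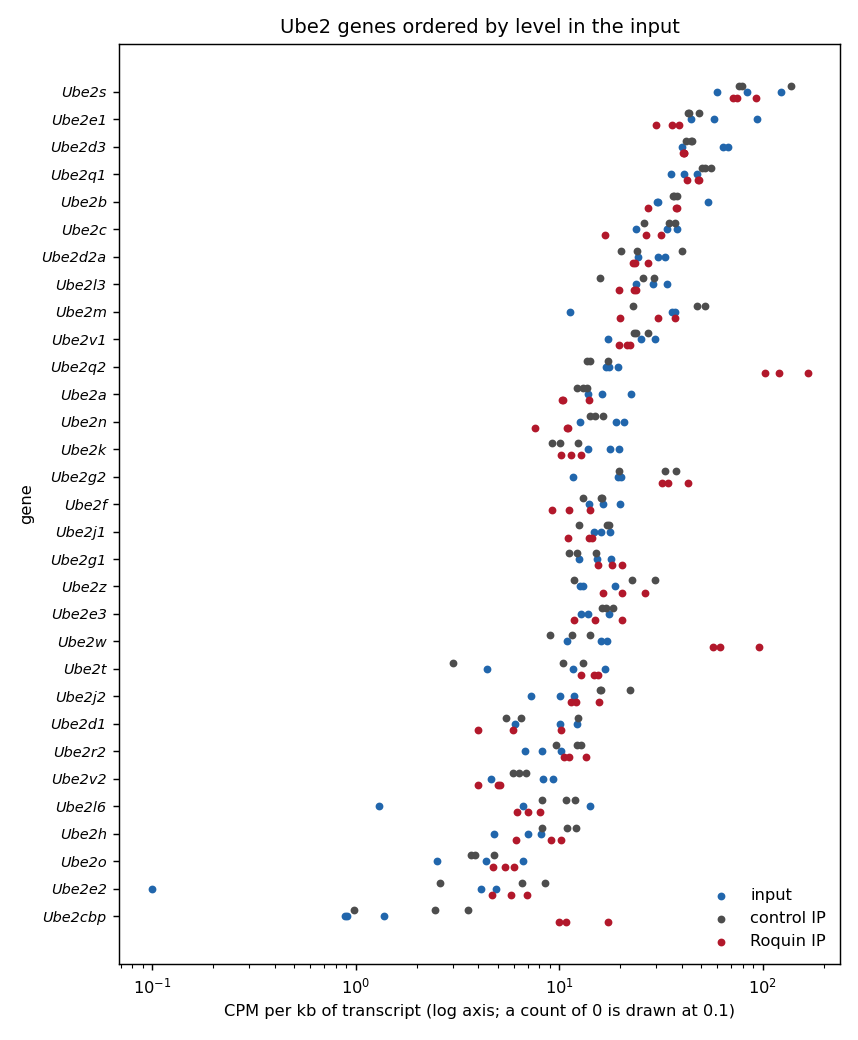
CPM per kb of transcript (x axis, log axis) of 31 of the 32 tested members in each library, ordered by mean level in the input, with colours for the 3 groups and a count of 0 drawn at 0.1. Ube2s is at the top (89.2 in the input) and Ube2cbp at the bottom (1.06), and the red Roquin IP points of Ube2q2, Ube2w and Ube2cbp stand apart from the other points of their rows.

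The other steps of the pathway were read from lists of related genes in Roquin IP over control IP. Of 10 E1 enzymes 0 were called in edgeR or DESeq2, with 0 higher and 1 lower at an unadjusted p under 0.05 and a median log2 fold change of -0.32. Of 8 E2 and E2-like genes without the Ube2 prefix 0 were called by both tools (0 higher and 1 lower at an unadjusted p under 0.05, median -0.46). Of 12 tested genes for ubiquitin and ubiquitin-like proteins 0 were called by both tools, and 0 passed at an unadjusted p under 0.05 (median -0.33). The median of all genes tested was -0.12. Of all tested genes 3.76% were called higher and 0% lower in edgeR, and 4.96% and 0.0627% in DESeq2. At an unadjusted p under 0.05 the shares were 7.93% and 2.13%. In lists of 8 to 12 genes, 0 calls is near these shares and does not set the lists apart.

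Among 31 tested E3 ligases that work with the family, 1 was higher (against 3.76% of all tested genes) and 0 were lower (median log2 fold change -0.12). This was Itch, a HECT ligase that restrains immune signalling. It was at 136.7, 81.3 and 118.5 CPM in Roquin IP, 23.8, 28.02 and 26.9 for control IP and 74.1, 41.5 and 46.6 for the input. Roquin IP was above both, and control IP was below the input without overlap. Over control IP this gave a log2 fold change of 2.09 (SE 0.31, edgeR adjusted p = 0.000645). DESeq2 likewise called 0 ligases lower. At an unadjusted p under 0.05 2 were higher and 3 lower, where 7.93% and 2.13% of all tested genes were.

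Among 15 deubiquitinases, which remove ubiquitin, 1 was higher (against 3.76% of all tested genes) and 0 were lower (against 0%), with a median log2 fold change of 0.00. With the replicate block (against 5.52% of all tested genes) and with DESeq2 (against 4.96%) 3 were higher. The called gene was Usp7, which stabilises p53 regulators and other proteins. It was at 258.4, 161.6 and 251.0 CPM in Roquin IP, 98.7, 83.7 and 99.5 for control IP and 126.6, 123.4 and 180.0 for the input. Roquin IP overlapped the input, and control IP was below the input without overlap. Over the input Usp7 was not called (log2 fold change 0.64, SE 0.28, edgeR adjusted p = 0.186). Over control IP the log2 fold change was 1.25 (SE 0.28, edgeR adjusted p = 0.0177). The call ended without Roquin IP 1 (adjusted p = 0.0931), Roquin IP 3 (0.0941), control IP 2 (0.118) or control IP 3 (0.0541), and with library size alone (0.262). DESeq2 called 0 deubiquitinases lower, and 0 were lower at an unadjusted p under 0.05.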

How the data were processed

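Raw counts of reads for every gene and library, so named per the file headers, were used as deposited by the authors. It also held the authors' ratio of Roquin IP to control IP (headed log2 but on a linear scale, since no value is negative), the authors' p-value, with no statement of any adjustment, and a CDE class. The submitters' processing notes name BWA, CASAVA 1.8.2 and DESeq 1.8.3. For the genome build, annotation and strand, the sources used here give nothing.

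Counts were fitted with edgeR 4.0.16 (R 4.3.3) with TMM factors, in a single model of 9 libraries with a term for group. After filterByExpr (minimum count 10) 9567 genes were tested. A gene was called where its adjusted p (Benjamini-Hochberg, over all tested genes) was under 0.05. A standard error is the log2 fold change over the square root of F. The fit was also run on simulated counts with the same dispersion for every gene and no pairing of libraries. That run does not test how the fit handles the pairing in these data. Members, lists and patterns were chosen with earlier results of these data known. Named genes are members called in any comparison, the 3 highest and 3 lowest in each, related genes called over control IP, and others where stated. The values of 1 tested member are not reported here, while counts and medians include it.

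Same-numbered libraries deviated together from their group means (r across 9567 genes 0.315 to 0.580 for Roquin IP with control IP, 0.255 to 0.471 for Roquin IP with input, 0.152 to 0.327 for control IP with input). The numbers were therefore taken to pair libraries, from the data and not from the labels. The main fit had no term for this pairing, so its p-values leave it out, and the replicate block was run as an alternative. Alternatives were RLE factors, library size alone, DESeq2 1.42.0, no filter, only the 6 libraries compared, the replicate block and leaving out each library. Sequences came from GENCODE M21 transcripts (GRCm38), with all 35 members matched by symbol. Near-identical copies were sought with BLAST 2.17.0 (at least 95% identity over 100 bases). Intervals of counting error were not drawn, and the floor of 3 counts covers counting error only, since PCR reads are not independent molecules.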

Additional observations from a re-analysis of the deposited data

How the results depend on the processing

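Of the values of single genes under the alternatives, 362 kept their direction and their side of the threshold, 20 passed it newly, 6 no longer did, and 1 changed sign: Ube2l3 over control IP, at 0.092 without control IP 2. Leaving out 1 library, Ube2l3 ranged from -0.31 to 0.092, and library size alone gave -0.94. With library size alone, 20 members were lower over control IP and 13 over the input, and all-gene counts were 3708 lower over control IP, 259 higher and 2668 lower over the input, and 10 lower for control IP over the input. DESeq2 gave 2 members lower over the input and 1 higher for control IP over the input. Over all genes it gave 6 lower over control IP, 542 lower over the input, and 405 higher and 401 lower for control IP over the input. With the replicate block 2 members were lower over the input (Ube2e1 and Ube2n) and 2 were higher for control IP over the input, Ube2j2 among them. With that pairing, all-gene counts were 11 lower over control IP, 956 higher and 769 lower over the input, and 636 higher and 553 lower for control IP over the input. The block also added Ube2g2 to the members higher over the input. Apart from the changes listed above, it altered no call of a member. Without a filter the all-gene counts were 21 lower over control IP, 416 lower over the input, and 335 higher and 229 lower for control IP over the input. With only the 6 libraries compared, control IP over the input gave 2 higher and 1 lower. The corresponding counts of the 9-library fit were 360 higher and 0 lower over control IP, 521 and 267 over the input, and 78 and 29 for control IP over the input.

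Leaving out 1 library, members higher ranged from 2 to 3 over control IP and from 3 to 4 over the input, with 0 lower in both and 0 either way for control IP over the input. All-gene counts ranged from 276 to 378 higher and 0 to 3 lower over control IP, 298 to 679 and 30 to 452 over the input, and 0 to 185 and 0 to 86 for control IP over the input. The causes were not tested. Input counts were low for Ube2cbp (4 or 5 per library) and Ube2e2 (0 to 16).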
